A study of Mus musculus with 8 samples.

Results

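Chemokines, interleukins and the receptors of both were followed in whole mouse testes from which Dmrt1 had been targeted with a Cre recombinase. A gene was a member when the array's annotation gave its probe set a single symbol beginning with Ccl, Ccr, Cxcl, Cxcr or Il and a digit, or with Cx3cl or Cx3cr. The array carried 121 such genes among 18194 genes with a probe set of their own. The 121 were 18 CC chemokine ligands, 14 CXC or CX3C ligands, 16 chemokine receptors, 9 ligands, 7 receptors and 3 inhibitors of the interleukin-1 family, 24 other interleukins, 28 other interleukin receptors, and 2 genes that share only the prefix (Il1bos, which lies opposite Il1b, and Il4i1, an amino acid oxidase). Each member was read from 1 probe set, the one with the highest mean over the 8 arrays.

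All mice were homozygous for a floxed Dmrt1 allele (Dmrt1 flox/flox), were sampled at postnatal day 28 and had a mixed C57BL6/6J and 129 background. Dmrt1 encodes a DM-domain transcription factor of Sertoli cells and germ cells that keeps Sertoli cells in their male state. The 2 control arrays came from mice without Cre, 2 arrays from mice with Cre under the Dhh promoter (Dhh-Cre) and 4 arrays from mice with Cre under the Sf1 (Nr5a1) promoter (Sf1-Cre), and the labels describe both promoters as specific to Sertoli cells. Total RNA of the testis was hybridised to Affymetrix arrays, and the deposited values were background-corrected, normalised intensities made with GCRMA. The labels number the replicates as biological but do not say whether animals were pooled, so a p-value here measures the spread among these 8 arrays.

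Chemokines are small secreted proteins that guide leukocytes and other cells through receptors coupled to G proteins, and the spacing of their first cysteines gives the CC, CXC and CX3C classes. Most interleukins signal through paired receptor chains, such as gp130 or the interleukin-4 receptor alpha chain, that activate JAK kinases and STAT factors. The interleukin-1 and interleukin-17 families signal instead through adaptors that lead to NF-kB. In the adult testis resident macrophages lie in the interstitium beside Leydig cells, and the seminiferous epithelium, formed by Sertoli cells and germ cells, is shielded from the immune system.

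The RNA of these testes differed widely between the groups. Of 13802 genes that reached log2 4 (an intensity of 16) in at least 2 arrays, 79.8% differed between Sf1-Cre and control and 79.6% between Dhh-Cre and control at an adjusted p under 0.05 (limma, Benjamini-Hochberg over all 13802 genes), and 24.6% differed between Sf1-Cre and Dhh-Cre. The median log2 difference over all tested genes was 0.34 in Sf1-Cre and 0.54 in Dhh-Cre against control, and 0.02 between the mutant groups. Dmrt1 itself was lower in Sf1-Cre than in control (log2 7.10 to 7.89 against 8.50 and 8.76) but higher in the arrays labelled Dhh-Cre (10.43 and 9.94). The labels do not say whether its probe set lies in the deleted part, so Dhh-Cre below means the arrays labelled Dhh-Cre. Summed intensity of 13 spermatid markers was 83907 to 88317 in control, 4303 to 16863 in Dhh-Cre and 6729 to 16011 in Sf1-Cre. In whole testis, fewer cells of a type and less RNA per cell cannot be told apart. Spink8, an epididymal gene, stood at log2 10.49 or above in Dhh-Cre replicate 1 and Sf1-Cre replicates 1 and 3 and at 6.87 or below elsewhere. Sf1-Cre replicate 1 also carried S100a8 at 10.90, S100a9 at 12.17 and Ms4a1 at 7.25, markers of neutrophils and B cells that the other 7 arrays held at 4.90 or below. Of 14 Sertoli markers on the array 13 were tested, and Amh was under log2 4 throughout.

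Of the 121 members, 52 reached log2 4 in at least 2 arrays and were tested, and 69 did not. In Sf1-Cre 35 members were higher and 11 lower than in control, with 6 not called (46.6% of all tested genes were higher and 33.2% lower). In Dhh-Cre 29 were higher and 11 lower, with 12 not called (49.1% and 30.5% of all tested genes). All arrays of Sf1-Cre lay above both controls for 36 members and below for 12 (50.0% and 36.0% of all tested genes, 85.9% together). In Dhh-Cre this held for 34 above and 14 below (56.0% and 35.1%, 91.1% together). The median log2 difference of the tested members was 1.48 in Sf1-Cre and 0.93 in Dhh-Cre. These counts are a description and not support for a direction, because 22 of the 52 passed the intensity filter only through mutant arrays and 7 only through control arrays. Among the 23 that reached log2 4 in both kinds of testis, 16 were higher, 3 lower and 4 not called in Sf1-Cre, and 12 were higher, 4 lower and 7 not called in Dhh-Cre. Both comparisons use the same 2 control arrays. Side by side, 26 members were called higher in both and 10 lower in both, and Il17re was higher in Dhh-Cre but lower in Sf1-Cre.

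The direction of modest changes depended on the scale. Centring every array on the median of 13 housekeeping genes moved all genes by -1.7 in Sf1-Cre and -1.69 in Dhh-Cre against control, so that the share of calls that were higher went from 58.4% to 17.8% and from 61.7% to 19.1%. On that scale 18 members were higher and 21 lower in Sf1-Cre, and 14 were higher and 26 lower in Dhh-Cre. A rise smaller than that shift holds relative to the authors' normalisation only. Some larger rises kept their direction on that scale but were no longer called. In Dhh-Cre these included Ccl6 (0.74), Ccl9 (1.04), Cxcl14 (0.06), Il15 (0.38), Ccr2 (0.23), Cxcr4 (0.20) and Cx3cr1 (0.67). In Sf1-Cre they included Il7r (1.45), Ccr2 (0.64), Cx3cr1 (0.39) and Il15ra (0.19). Of the called members 11 turned from higher to lower in Sf1-Cre (Cx3cl1, Cxcl10, Cxcr3, Il10ra, Il16, Il17rc, Il17rd, Il18bp, Il1r1, Il33 and Il6ra), and 7 in Dhh-Cre (Cxcl1, Cxcr3, Il17rb, Il18bp, Il1r1, Il31ra and Il6ra). Leaving out any 1 array ended 4 of the 46 calls in Sf1-Cre (Il17rc, Il17re, Il33, Il6ra) and 6 of the 40 in Dhh-Cre (Ccr2, Cxcr3, Il17rb, Il18bp, Il1r1, Il31ra).

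**Figure D1:**
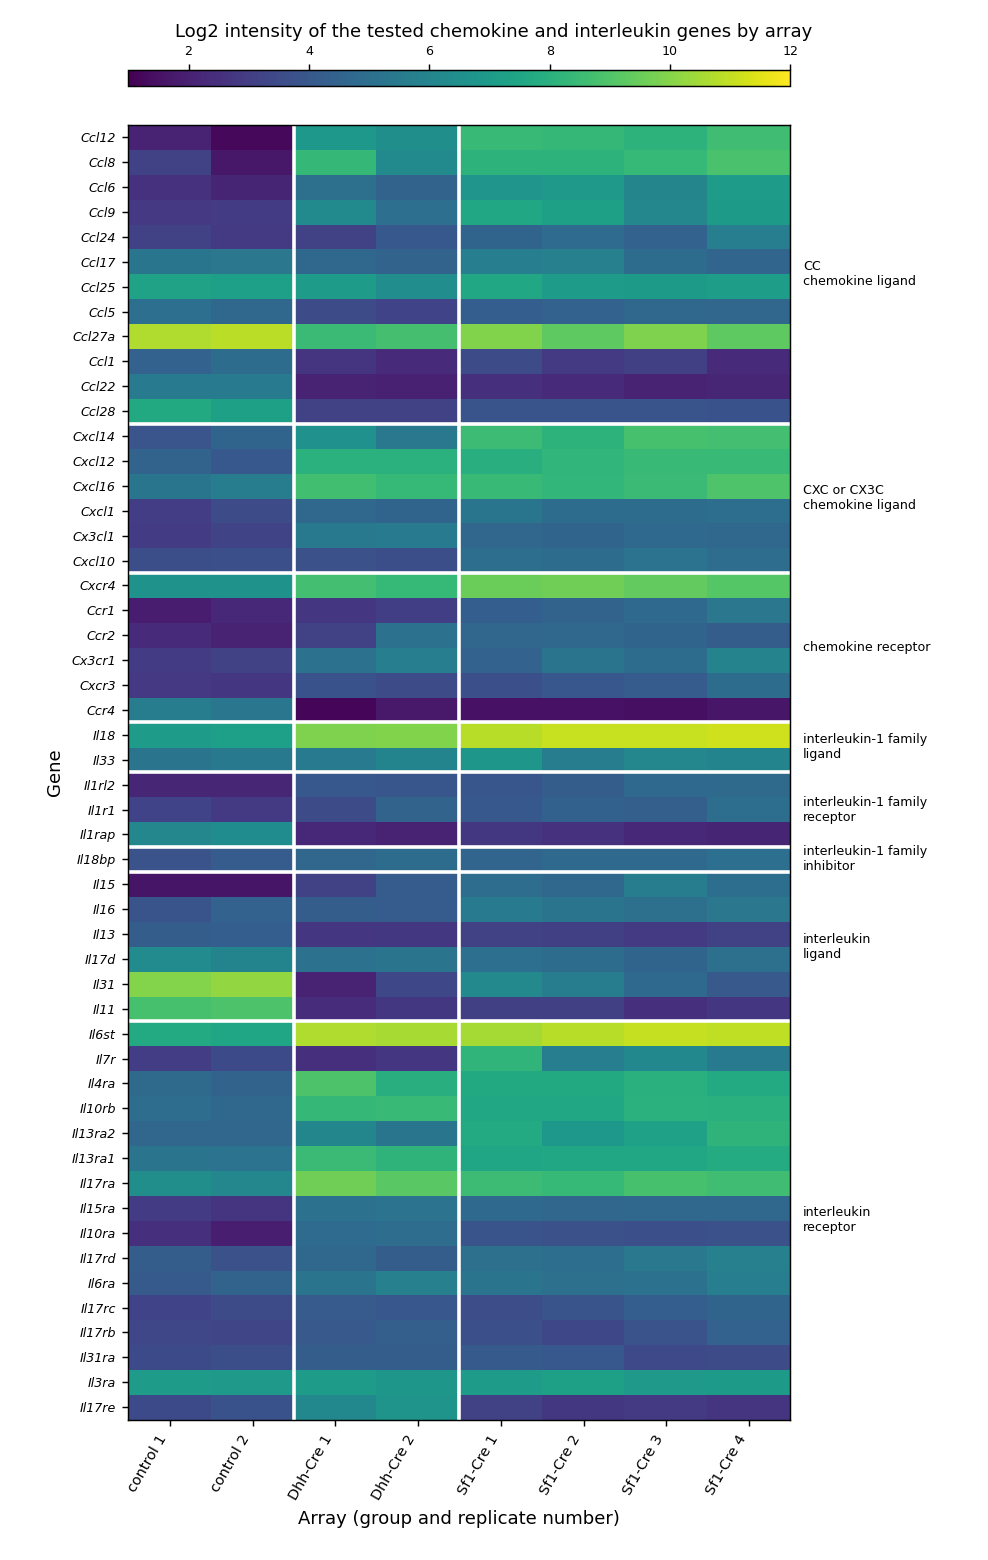
Heat map of the 52 tested members (rows, grouped by role and ordered by their change in Sf1-Cre) in the 8 arrays (columns); colour gives log2 intensity on a linear colour scale from 1 to 12. Rows that are dark in the 2 control columns and bright in the mutant columns include Ccl12, Ccl8 and Il15, and the reverse holds for Il11, Il31, Ccl28 and Ccr4.

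The CC chemokine ligands held both rises and falls. Of 12 tested, 5 were higher and 4 lower in Sf1-Cre (41.7% and 33.3%, beside 46.6% and 33.2% of all tested genes). In Dhh-Cre 4 were higher and 5 lower (33.3% and 41.7%, beside 49.1% and 30.5% of all tested genes). Of these 12, 5 passed the filter only through mutant arrays and 3 only through control arrays, so the counts partly restate the filter. Ccl12, a ligand of Ccr2 that draws monocytes, read 2.09 and 1.24 in control, 6.88 and 6.47 in Dhh-Cre, and 8.44, 8.33, 8.13 and 8.64 in Sf1-Cre on the log2 scale. All 6 mutant arrays lay above both controls, and all 4 Sf1-Cre arrays lay above both Dhh-Cre arrays. The log2 difference from control was 6.72 ± 0.27 (SE) in Sf1-Cre (adjusted p = 6.17e-07) and 5.01 ± 0.31 in Dhh-Cre (adjusted p = 5.71e-06). Because the controls were under log2 4, these are stated as at least 20.9-fold and at least 6.37-fold, the mutant mean set against log2 4; the same bound is used for every "at least" fold below. Ccl8, another monocyte-attracting ligand, read 3.12 and 1.72 in control, 8.31 and 6.22 in Dhh-Cre, and 8.10, 8.13, 8.35 and 8.85 in Sf1-Cre. It was at least 20.5-fold higher in Sf1-Cre (log2 difference 5.93 ± 0.60, adjusted p = 4.56e-05) and at least 9.63-fold higher in Dhh-Cre (4.84 ± 0.69, adjusted p = 0.000307). The 2 Dhh-Cre arrays differed by more for Ccl8 than the 4 Sf1-Cre arrays did, and the mutant groups overlapped.

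Ccl12 and Ccl8 are neighbours on mouse chromosome 11, and their promoters are shown because both genes were under log2 4 in control and called higher in both mutant groups. The 150 bases before the annotated start of each gene (RefSeq, GRCm38.p6, plus strand) read as follows, with a TATAAA match in capitals that begins at position -31 from the start of Ccl12 and -32 from that of Ccl8, at chr11:82101695-82101844 and chr11:82115035-82115184.
Ccl12: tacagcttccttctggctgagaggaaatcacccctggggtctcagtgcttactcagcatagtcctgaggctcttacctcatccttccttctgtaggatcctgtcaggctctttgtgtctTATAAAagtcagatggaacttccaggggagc
Ccl8: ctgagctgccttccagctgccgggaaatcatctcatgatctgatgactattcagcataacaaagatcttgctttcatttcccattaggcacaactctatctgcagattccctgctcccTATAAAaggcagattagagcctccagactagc
Aligned, the windows shared 100 identical bases with 39 mismatches and 22 gap positions. Outside the gaps 71.9% of the positions were identical. Promoter windows were found for 45 of the 52 tested members. TATAAA, searched on both strands of the 250 bases before each start, lay in 30.4% of the windows of members higher in both mutant groups (7 of 23 windows). It lay in 7.69% of the windows of members lower in both, 22.2% of those of all tested members and 12.4% of all 32851 windows.

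Ccl6 and Ccl9, both chemokines that bind Ccr1, rose as well. Ccl6 read 2.55 and 2.13 in control, 5.04 and 4.51 in Dhh-Cre, and 6.75, 6.94, 6.00 and 7.10 in Sf1-Cre, at least 6.49-fold higher in Sf1-Cre (log2 difference 4.36 ± 0.32, adjusted p = 9.29e-06) and at least 1.71-fold higher in Dhh-Cre (2.44 ± 0.37, adjusted p = 0.000461). Ccl9 read 2.83 and 2.91, then 6.20 and 5.0, then 7.54, 7.27, 6.11 and 7.01, and was at least 7.9-fold higher in Sf1-Cre (4.11 ± 0.44, adjusted p = 6.64e-05) and at least 3.03-fold higher in Dhh-Cre (2.73 ± 0.51, adjusted p = 0.0014). No mutant array of either gene overlapped a control. Ccl24, an eosinophil-attracting ligand, rose in Sf1-Cre only as far as called (1.90 ± 0.39, adjusted p = 0.00231), with 3.12 and 4.05 in the Dhh-Cre arrays against 3.12 and 2.85 in control.

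Other CC ligands fell. Ccl28, an epithelial chemokine of mucosal tissues, read 7.69 and 7.26 in control, 3.17 in both Dhh-Cre arrays and 3.84, 3.84, 3.87 and 3.78 in Sf1-Cre. Every mutant array was under log2 4, so the fall was at least 11.1-fold in both groups (log2 difference -3.64 ± 0.15, adjusted p = 7.17e-07 in Sf1-Cre; -4.31 ± 0.17, adjusted p = 1.68e-06 in Dhh-Cre). Ccl22, a ligand of Ccr4, read 5.47 and 5.55 in control and between 2.00 and 2.49 in all mutant arrays, a log2 difference of -3.23 in Sf1-Cre and -3.47 in Dhh-Cre. Ccl1 went from 4.45 and 4.91 to between 2.32 and 3.56. Ccl27a was lower by 1.21 and 2.17 on the log2 scale, read through a probe set of the cross-hybridising class; near-identical copies of this gene make its value uncertain. Ccl5, which recruits T cells, read 5.01 and 4.73 in control, 3.56 and 3.23 in Dhh-Cre and 4.29 to 4.69 in Sf1-Cre, and passed the test only in Dhh-Cre (-1.47 ± 0.21, adjusted p = 0.000281; Sf1-Cre -0.35 ± 0.18, adjusted p = 0.101). Ccl17 and Ccl25 passed in neither comparison. Ccl2, the best-known monocyte chemoattractant, stayed between 2.87 and 3.64 in all 8 arrays and was not tested.

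Some neighbouring chemokine genes moved alike and others did not. Along chromosome 11 the order Ccl2, Ccl7, Ccl11, Ccl12, Ccl8, Ccl1 held 3 genes under the filter, then Ccl12 and Ccl8, which both rose, then Ccl1, which fell. In the other run on chromosome 11 the rising genes Ccl9 and Ccl6 lay between Ccl5, which was lower in Dhh-Cre, and Ccl3 and Ccl4, both under the filter. On chromosome 8 Ccl22 fell, Cx3cl1 next to it rose, and Ccl17 was not called.

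**Figure D2:**
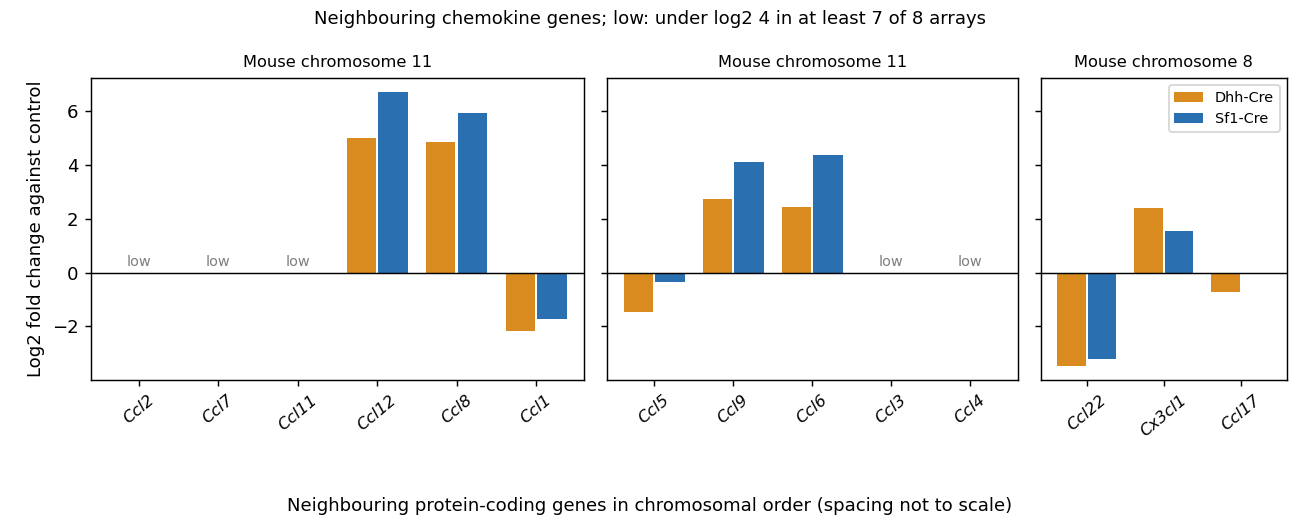
Bars give the log2 fold change against control in Dhh-Cre (orange) and Sf1-Cre (blue) for chemokine genes in chromosomal order; genes marked low were under log2 4 in at least 7 of 8 arrays and have no bar. Ccl12 and Ccl8 stand at 6.72 and 5.93 in Sf1-Cre between untested neighbours and Ccl1 at -1.71.

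Of 14 CXC and CX3C ligands 6 were tested. All 6 were called higher in Sf1-Cre and 5 in Dhh-Cre, where Cxcl10 was not called, beside 46.6% and 49.1% of all tested genes. Cx3cl1, Cxcl1 and Cxcl10 passed the filter only through mutant arrays, which fixes their direction. Cxcl12, the ligand of Cxcr4 that holds stem and progenitor cells in their niches, read 4.50 and 4.01 in control, 8.01 and 8.04 in Dhh-Cre, and 7.92, 8.22, 8.47 and 8.47 in Sf1-Cre. The group means and SDs were 4.26 ± 0.35 (n = 2), 8.03 ± 0.03 (n = 2) and 8.27 ± 0.26 (n = 4). It was 16.1-fold higher in Sf1-Cre (log2 difference 4.01 ± 0.21, adjusted p = 1.99e-06) and 13.6-fold higher in Dhh-Cre (3.77 ± 0.25, adjusted p = 7.35e-06), and the mutant groups overlapped. Cxcl14, a chemokine of epithelia and fibroblasts, read 3.91 and 4.53, then 6.56 and 5.39, then 8.55, 8.13, 8.78 and 8.70. Its rise was 20-fold in Sf1-Cre (4.32 ± 0.35, adjusted p = 1.44e-05) and 3.37-fold in Dhh-Cre (1.75 ± 0.40, adjusted p = 0.00422), and the Dhh-Cre value fell to 0.06 with housekeeping centring. The 3 groups did not overlap for Cxcl14.

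Cxcl16, a transmembrane ligand of Cxcr6, read 5.26 and 5.65 in control, 8.69 and 8.36 in Dhh-Cre and 8.30 to 8.95 in Sf1-Cre, a rise of 8.4-fold in Dhh-Cre (3.07 ± 0.26, adjusted p = 1.99e-05) and 8.52-fold in Sf1-Cre (3.09 ± 0.22, adjusted p = 7.80e-06). Its probe set may also bind related transcripts. Cx3cl1, the membrane-bound ligand of Cx3cr1, went from 2.93 and 3.26 to 5.44 and 5.52 in Dhh-Cre and 4.53 to 4.75 in Sf1-Cre. Here the Dhh-Cre arrays were the highest, and with housekeeping centring the Sf1-Cre difference of 1.55 turned to -0.14. Other probe sets of Cx3cl1, all under log2 4, gave -0.08 to 0.16 in Dhh-Cre and -0.08 to 0.07 in Sf1-Cre. Cxcl10, an interferon-induced ligand of Cxcr3, separated the mutant groups: control read 3.63 and 3.68, Dhh-Cre 3.71 and 3.66, and Sf1-Cre 4.97, 4.90, 5.21 and 4.92. Cxcl1, a neutrophil chemoattractant, rose by 1.72 in Sf1-Cre and 1.33 in Dhh-Cre, through a probe set of the cross-hybridising class. Its neighbours Cxcl2, Cxcl3 and Cxcl15 were under the filter.

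Of 16 chemokine receptors 6 were tested, and only Cxcr4 reached log2 4 in both kinds of testis. The other 5 passed the filter through mutant arrays only (Ccr1, Ccr2, Cx3cr1 and Cxcr3) or control arrays only (Ccr4), so their count by direction restates the filter. Cxcr4, the receptor of Cxcl12, read 6.66 and 6.64 in control, 8.71 and 8.38 in Dhh-Cre, and 9.51, 9.60, 9.35 and 9.10 in Sf1-Cre. It was 6.68-fold higher in Sf1-Cre (2.74 ± 0.18, adjusted p = 5.28e-06) and 3.73-fold higher in Dhh-Cre (1.90 ± 0.21, adjusted p = 7.69e-05), and the 3 groups did not overlap. Ccr1 and Ccr2, receptors of monocytes and macrophages, were under log2 4 in control. Ccr1 read 1.87 and 2.28, then 2.75 and 3.05, then 4.27 to 5.35, and Ccr2 read 2.30 and 2.07, then 3.12 and 5.10, then 4.24 to 4.72. Ccr1 was called in Sf1-Cre (2.65 ± 0.30, adjusted p = 8.30e-05) but not in Dhh-Cre (0.83 ± 0.34, adjusted p = 0.0545). Ccr2 was called in both (2.34 in Sf1-Cre; 1.92 in Dhh-Cre, where leaving out control replicate 2 gave 1.81 with an adjusted p of 0.0581). Their neighbours Ccr1l1 and Ccr3 were under the filter in all arrays.

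Cx3cr1, the fractalkine receptor of tissue macrophages, read 2.94 and 3.13 in control, 5.10 and 5.71 in Dhh-Cre and 4.45, 5.23, 4.89 and 5.94 in Sf1-Cre, differences of 2.37 ± 0.45 and 2.09 ± 0.39. The other probe set of Cx3cr1, under log2 4 in every array, gave -0.77 in both groups. Cxcr3, the receptor of Cxcl10 on activated lymphocytes, stayed under log2 4 in Dhh-Cre and reached 3.69 to 4.89 in Sf1-Cre. Its Dhh-Cre call (0.88, adjusted p = 0.0469) was lost on leaving out 6 of the 8 arrays in turn, each giving an adjusted p of 0.0623 to 0.165. Ccr4, a receptor of regulatory and helper T cells for Ccl17 and Ccl22, went the other way: it read 5.66 and 5.30 in control and 1.18 to 1.77 in all 6 mutant arrays, at least 2.8-fold lower in both groups (-3.93 ± 0.20, adjusted p = 1.64e-06 in Sf1-Cre; -4.01 ± 0.23, adjusted p = 4.59e-06 in Dhh-Cre). Ccr6 and Ccr7, also receptors of lymphocytes, went from 3.56 to 4.08 in control to 2.27 or less in the mutant arrays but did not reach log2 4 in 2 arrays. Cxcr6 was between 1.31 and 2.75 in all arrays.

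Marker lists of leukocytes moved unevenly with these genes. Beside the counts against control below, 46.6% of all tested genes were higher and 33.2% lower in Sf1-Cre. In Dhh-Cre 49.1% were higher and 30.5% lower, and the shorter lists rest on few genes. Of 18 tested macrophage markers 16 were higher and 2 lower (Msr1 and Aif1) in each mutant group against control, with Itgam under log2 4 in every array, and their summed intensity was 12872 to 17164 in control, 29081 to 29538 in Dhh-Cre and 36108 to 41574 in Sf1-Cre. Of 5 tested monocyte markers 2 were higher, 1 of them the member Ccr2. In contrast 4 of 5 tested T cell markers were lower and none higher in each comparison with control, Cd3g, Cd5, Cd8a, Cd4 and Cd28 were under log2 4 in every array, and the summed intensity was 548 to 639 in control, 88.6 to 108 in Dhh-Cre and 100 to 120 in Sf1-Cre. Cd3d, the brightest T cell marker in control and so the largest part of that sum, read 8.51 and 8.73 in control against 2.84 to 4.76 in the mutants. The T cell marker not called was Cd3e, with means of 4.87 in control, 4.93 in Dhh-Cre and 4.72 in Sf1-Cre. Of 8 tested endothelial markers 7 were higher in both groups, with Pecam1 and Cdh5 under log2 4 in every array (sums of 390 to 416 in control, 1574 to 1956 in Dhh-Cre and 1153 to 1980 in Sf1-Cre). All 9 tested fibroblast markers were higher in both (2725 to 2755, 20694 to 24586 and 19809 to 22189). Of 10 tested granulosa markers 10 were higher in Sf1-Cre and 9 in Dhh-Cre (sums of 1061 to 1102 in control, 6381 to 7453 in Dhh-Cre and 9991 to 14308 in Sf1-Cre), with Esr2 and Irx3 under log2 4 in every array. Of 7 Leydig markers 6 and 5 were higher (5766 to 6647, 19654 to 24883 and 22891 to 31041). Of 3 tested dendritic cell markers 3 and 2 were higher, with Flt3, Itgax, Xcr1 and Cd209a under log2 4 in every array, and of 5 tested mast cell markers 4 and 3, with Ms4a2 and Fcer1a under it. What part these lists have in the changes of the members was not tested.

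**Figure D3:**
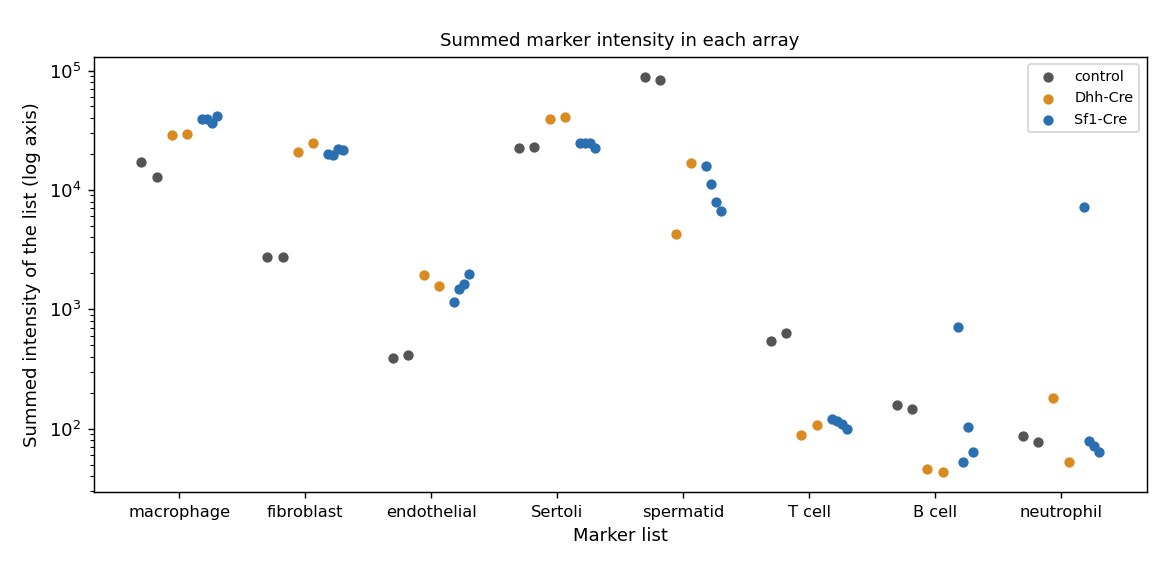
Points give the summed intensity of each marker list in each array on a log axis, by group (grey control, orange Dhh-Cre, blue Sf1-Cre). Macrophage, fibroblast and endothelial sums are higher in the mutant arrays, spermatid and T cell sums are higher in control, and Sf1-Cre replicate 1 stands alone for neutrophil (7198) and B cell (718) markers.

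In the interleukin-1 family only 6 of 19 members were tested. Il18, a cytokine stored as a precursor and released by the inflammasome, read 7.09 and 7.21 in control, 9.89 and 9.91 in Dhh-Cre, and 10.80, 11.09, 11.08 and 11.19 in Sf1-Cre. It was 14.8-fold higher in Sf1-Cre (3.89 ± 0.15, adjusted p = 5.61e-07) and 6.7-fold higher in Dhh-Cre (2.74 ± 0.17, adjusted p = 6.30e-06), and the 3 groups did not overlap. Its soluble inhibitor Il18bp rose by 0.79 ± 0.18 in Sf1-Cre and 0.75 ± 0.21 in Dhh-Cre, the latter lost without control replicate 1 (0.57, adjusted p = 0.0687) or Dhh-Cre replicate 2 (0.64, adjusted p = 0.0588). The chains of its receptor, Il18r1 and Il18rap, stayed at 2.56 or below. Il33, a nuclear alarmin, read 5.22 and 5.43 in control, 5.59 and 5.98 in Dhh-Cre and 5.66 to 6.83 in Sf1-Cre. Its call in Sf1-Cre (0.81 ± 0.31, adjusted p = 0.0402) was lost without control replicate 1, control replicate 2 or Sf1-Cre replicate 3, at differences of 0.70 to 0.91, and turned to -0.89 with housekeeping centring.

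Il1rap, the accessory chain shared by the receptors for interleukin-1 and interleukin-33, fell from 6.11 and 6.34 to 2.22 and 2.10 in Dhh-Cre and to 2.13 to 2.79 in Sf1-Cre, at least 4.68-fold in both (-3.80 ± 0.21, adjusted p = 2.28e-06 in Sf1-Cre; -4.07 ± 0.24, adjusted p = 4.92e-06 in Dhh-Cre). Other probe sets of Il1rap, all under log2 4, gave -0.31 to 0.74 in Sf1-Cre. Il1r1, the ligand-binding chain it pairs with, read 3.20 and 2.87 in control, 3.53 and 4.49 in Dhh-Cre and 4.04 to 4.96 in Sf1-Cre (1.40 ± 0.33, adjusted p = 0.00461). Its Dhh-Cre call (0.97 ± 0.38, adjusted p = 0.0426) was lost without control replicate 1, control replicate 2, Dhh-Cre replicate 2, Sf1-Cre replicate 2 or Sf1-Cre replicate 3 (0.49 to 1.14), and its direction turned with housekeeping centring in both groups (-0.30 and -0.72). Il1rl2, the interleukin-36 receptor, rose from 2.20 and 2.19 to 4.05 and 3.96 in Dhh-Cre and 3.95 to 4.80 in Sf1-Cre, read through a probe set that may bind related transcripts. The classical ligands were low: Il1b read 3.74 and 3.65 in control and 2.54 to 3.45 in the mutants, and Il1a read 1.67 to 2.61 throughout. All 6 genes of the interleukin-36 and interleukin-1 antagonist cluster on chromosome 2 were under the filter.

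Among the other interleukins 6 of 24 were tested, and 4 of those fell in both groups. Of all tested genes 33.2% were lower in Sf1-Cre and 30.5% in Dhh-Cre. Il11 and Il13 passed the filter only through control arrays and Il15 only through mutant arrays, so the count partly restates the filter. Il11, a cytokine of the interleukin-6 family that signals through gp130, read 8.81 and 8.94 in control, 2.40 and 2.79 in Dhh-Cre, and 3.10, 3.07, 2.5 and 2.75 in Sf1-Cre. No mutant array reached log2 4, and the fall was at least 29.3-fold in both groups (-6.02 ± 0.21, adjusted p = 4.84e-07 in Sf1-Cre; -6.28 ± 0.25, adjusted p = 1.58e-06 in Dhh-Cre). Il31, a cytokine of the same family best known from activated T cells and itch, read 9.98 and 10.21 in control, 2.04 and 3.40 in Dhh-Cre, and 6.18, 5.63, 4.78 and 4.07 in Sf1-Cre. It was 30.5-fold lower in Sf1-Cre (-4.93 ± 0.60, adjusted p = 0.000127) and at least 68.3-fold lower in Dhh-Cre (-7.37 ± 0.69, adjusted p = 3.48e-05). The 4 Sf1-Cre arrays spread over more than 2 log2 units for Il31. The summed spermatid markers of the same 4 arrays, in the same order, were 16011, 11324, 7945 and 6729, and those of the Dhh-Cre arrays 4303 and 16863. The part of spermatid RNA in the values of Il31 and Il11 was not tested.

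The promoters of Il11 and Il31 are shown because both fell by at least 29.3-fold in both groups. RefSeq (GRCm38.p6) gives Il11 start sites 4716 bases apart on the minus strand of chromosome 7, with upstream windows at chr7:4782858-4783007 and chr7:4778142-4778291. Il31 lies on the minus strand of chromosome 5 with its window at chr5:123482624-123482773. Capitals mark the match to TGANTCA, the AP-1 site, which begins at position -98 from the second Il11 start.
Il11, first start: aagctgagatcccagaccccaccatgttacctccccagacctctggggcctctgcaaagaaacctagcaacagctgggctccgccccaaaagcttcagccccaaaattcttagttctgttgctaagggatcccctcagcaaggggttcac
Il11, second start: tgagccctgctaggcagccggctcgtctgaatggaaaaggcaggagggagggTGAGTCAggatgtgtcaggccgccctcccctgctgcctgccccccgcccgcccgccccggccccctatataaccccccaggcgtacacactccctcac
Il31: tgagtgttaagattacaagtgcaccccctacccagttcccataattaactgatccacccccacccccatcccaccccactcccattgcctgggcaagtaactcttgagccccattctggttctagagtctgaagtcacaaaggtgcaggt
Searched on both strands of the 250 bases before the start, TGANTCA lay in 23.1% of the windows of members lower in both mutant groups (3 of 13 windows), 8.7% of those higher in both and 6.75% of all windows. ACANTGT, used here as the core of DM-domain binding sites, lay in 0% of the windows of members higher in both groups, in 7.69% of those lower in both (Ccr4) and in 6.47% of all. TTCNNNGAA, a STAT site, lay in 4.35%, 0% and 7.02%, and TGACGTCA, the cyclic AMP response element, in none of either set and in 1.55% of all. The kappaB motif lay in 13%, 0% and 3.9%. These are matches of letters in small sets and are given as a description.

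Il13 and Il17d also fell. Il13, a type 2 cytokine, read 4.26 and 4.29 in control and 2.76 to 3.16 in the mutants, and Il17d read 6.30 and 5.98 in control, 5.16 and 5.23 in Dhh-Cre and 4.54 to 5.04 in Sf1-Cre (-1.27 ± 0.18, adjusted p = 0.000341, and -0.94 ± 0.21, adjusted p = 0.00371). Il15, a cytokine for natural killer cells and memory T cells that is presented by Il15ra, rose instead: it read 1.61 in both control arrays, 3.15 and 4.21 in Dhh-Cre, and 4.95, 4.66, 5.61 and 4.97 in Sf1-Cre (3.44 ± 0.34, adjusted p = 4.11e-05, and 2.07 ± 0.39, adjusted p = 0.00146). Of 9 natural killer and innate lymphoid markers on the array only Rora was tested, and it fell. Ncr1, Klrk1, Gzma, Gzmb, Nkg7 and Eomes were under log2 4 in every array, and Prf1 read 3.40 and 3.66 in control, 3.96 and 3.83 in Dhh-Cre and 3.58 to 4.18 in Sf1-Cre. Il16, a ligand of CD4, rose in Sf1-Cre (1.13 ± 0.20, adjusted p = 0.00108) but was called neither way in Dhh-Cre (0.08 ± 0.23), and the Sf1-Cre difference turned to -0.56 with housekeeping centring. A second probe set of Il16, at log2 4 or above in 5 arrays, gave differences of 2.19 in Sf1-Cre and 1.23 in Dhh-Cre, so the Dhh-Cre result depends on the probe set. Among untested members, Il7 read 2.83 and 2.35 in control and 3.25 to 4.14 in the mutants, Il34, a second ligand of the macrophage growth factor receptor, 2.75 to 3.66, and Il6 1.22 to 1.70. Il21 read 3.54 and 3.77 in control and 1.54 to 2.5 in the mutants. The 4 untested members that reached log2 4 in a single array were Ccr7, Il1bos, Il27ra and Il7, and Il31ra and Il17rb were among the tested members nearest the limit.

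The interleukin receptors were the group with the most tested members, 16 of 28. In Sf1-Cre 12 were higher, 1 lower and 3 not called (75% and 6.25%, beside 46.6% and 33.2% of all tested genes). In Dhh-Cre 11 were higher, none lower and 5 not called (68.8% higher, beside 49.1% higher and 30.5% lower of all tested genes). Of the 16, 7 passed the filter only through mutant arrays. Il6st, which encodes gp130, the shared signal chain of the interleukin-6 family, read 7.71 and 7.46 in control, 10.68 and 10.55 in Dhh-Cre, and 10.50, 10.80, 11.05 and 10.93 in Sf1-Cre. It was 9.39-fold higher in Sf1-Cre (3.23 ± 0.18, adjusted p = 2.65e-06) and 8.15-fold higher in Dhh-Cre (3.03 ± 0.21, adjusted p = 9.65e-06). Its partner Il6ra rose less, by 0.98 ± 0.24 (adjusted p = 0.00621) and 1.20 ± 0.28 (adjusted p = 0.00459). The Sf1-Cre call of Il6ra was lost without control replicate 1 (0.78, adjusted p = 0.0627), and housekeeping centring turned both differences, to -0.72 and -0.50.

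Il4ra, Il13ra1, Il10rb and Il17ra were each called higher in both mutant groups, with the higher mean in Dhh-Cre. Il4ra, the chain shared by the interleukin-4 and interleukin-13 receptors, read 4.82 and 4.51 in control, 8.91 and 7.92 in Dhh-Cre, and 7.69, 7.70, 8.0 and 7.74 in Sf1-Cre (3.75 ± 0.31, adjusted p = 1.93e-05, a 13.4-fold rise in Dhh-Cre; 3.12 ± 0.27, adjusted p = 1.98e-05, 8.68-fold in Sf1-Cre). Il13ra1, its partner, read 5.23 and 5.21, then 8.50 and 8.17, then 7.45 to 7.77, rising 8.68-fold in Dhh-Cre and 5.19-fold in Sf1-Cre. Il13ra2, the decoy receptor for interleukin-13, had the opposite order: 4.62 and 4.65 in control, 6.06 and 5.27 in Dhh-Cre, and 7.72, 6.86, 7.30 and 8.17 in Sf1-Cre (2.87 ± 0.37, adjusted p = 0.000177). Its Dhh-Cre difference of 1.03 ± 0.43 was not called (adjusted p = 0.0542), but was without Dhh-Cre replicate 2 (1.42, adjusted p = 0.0337), Sf1-Cre replicate 2 (adjusted p = 0.0325) or Sf1-Cre replicate 4 (adjusted p = 0.0274).

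Il10rb, shared by receptors of the interleukin-10 family and of lambda interferons, rose from 4.94 and 4.73 to 8.33 and 8.46 in Dhh-Cre (11.7-fold, 3.55 ± 0.21, adjusted p = 4.90e-06) and to 7.59 to 8.01 in Sf1-Cre (7.78-fold, 2.96 ± 0.18, adjusted p = 3.67e-06). Il10ra, the interleukin-10 binding chain, read 2.49 and 1.92 in control, 4.86 and 4.94 in Dhh-Cre and 3.68 to 3.87 in Sf1-Cre, where no array reached log2 4. Its Sf1-Cre difference of 1.54 turned to -0.15 with housekeeping centring. Il17ra, the common chain of the interleukin-17 receptors, read 6.42 and 6.11 in control, 9.61 and 9.19 in Dhh-Cre, and 8.36 to 8.79 in Sf1-Cre, rising 8.78-fold (3.13 ± 0.22, adjusted p = 9.66e-06) and 4.98-fold (2.32 ± 0.19, adjusted p = 1.51e-05). Il15ra read 2.93 and 2.66 in control, 5.12 and 5.20 in Dhh-Cre and 4.65 to 4.74 in Sf1-Cre. Its rise was 2.37 ± 0.15 in Dhh-Cre and 1.89 ± 0.13 in Sf1-Cre.

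Il17re, which pairs with Il17ra as the receptor of the epithelial cytokine interleukin-17C, was the member with opposite calls in the mutant groups. It read 3.47 and 3.79 in control, 6.13 and 6.68 in Dhh-Cre, and 3.14, 2.77, 2.89 and 2.70 in Sf1-Cre. Only the Dhh-Cre arrays were above log2 4, at least 5.28-fold above control (2.77 ± 0.24, adjusted p = 2.50e-05). The Sf1-Cre difference of -0.76 ± 0.21 (adjusted p = 0.0103) lay wholly under log2 4, was lost without control replicate 2 (-0.60, adjusted p = 0.0899) and carries no fold. Its probe set may bind related transcripts. Other probe sets of Il17re, under log2 4 in every array, gave only 0.44 and 0.23 in Dhh-Cre against control. Sertoli markers moved the same way between the mutant groups: 10 of 13 were lower and none higher in Sf1-Cre than in Dhh-Cre. Among all tested genes 11.8% were lower and 12.9% higher, and the 10 markers include Dmrt1, the targeted gene. Summed Sertoli markers were 38903 to 40852 in Dhh-Cre, 22344 to 24895 in Sf1-Cre and 22477 to 22899 in control. The part of Sertoli cells in the level of Il17re was not tested.

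Il7r, the interleukin-7 receptor chain of lymphocytes and their precursors, was seen in Sf1-Cre: control read 2.98 and 3.47, Dhh-Cre 2.53 and 2.76, and Sf1-Cre 8.21, 5.69, 6.12 and 5.47. Replicate 1, the array with the neutrophil and B cell markers, was the highest, but without it the difference from control was still 2.54 (adjusted p = 5.47e-05, against 3.15 ± 0.70, adjusted p = 0.00347, with it). With housekeeping centring it was 1.45 and not called. The other probe set of Il7r stayed at 1.62 to 2.22 in all arrays. No tested T cell marker was higher in Sf1-Cre than in control. The B cell marker Cd79b was (3.17 ± 1.08, adjusted p = 0.0259), at 2.51 and 2.39 in control and 8.40, 3.93, 5.63 and 4.53 in Sf1-Cre. The other tested B cell markers did not rise: Cr2 was lower (-1.65 ± 0.21, adjusted p = 0.000172) and Fcrla was not called (-2.10 ± 0.95). The part of these cells in the level of Il7r was not tested. Of the remaining receptors, Il17rd rose in Sf1-Cre by 1.31 ± 0.28 (adjusted p = 0.00281), while its other measured probe set gave -1.48. Il17rc was called in Sf1-Cre (0.70, adjusted p = 0.0402), and Il17rb (0.89, adjusted p = 0.0316) and Il31ra (0.66, adjusted p = 0.0416) in Dhh-Cre, but each of these 3 calls was lost on leaving out either control array. Il3ra, with 6.81 to 7.24 in all 8 arrays, was called in neither comparison.

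**Figure D4:**
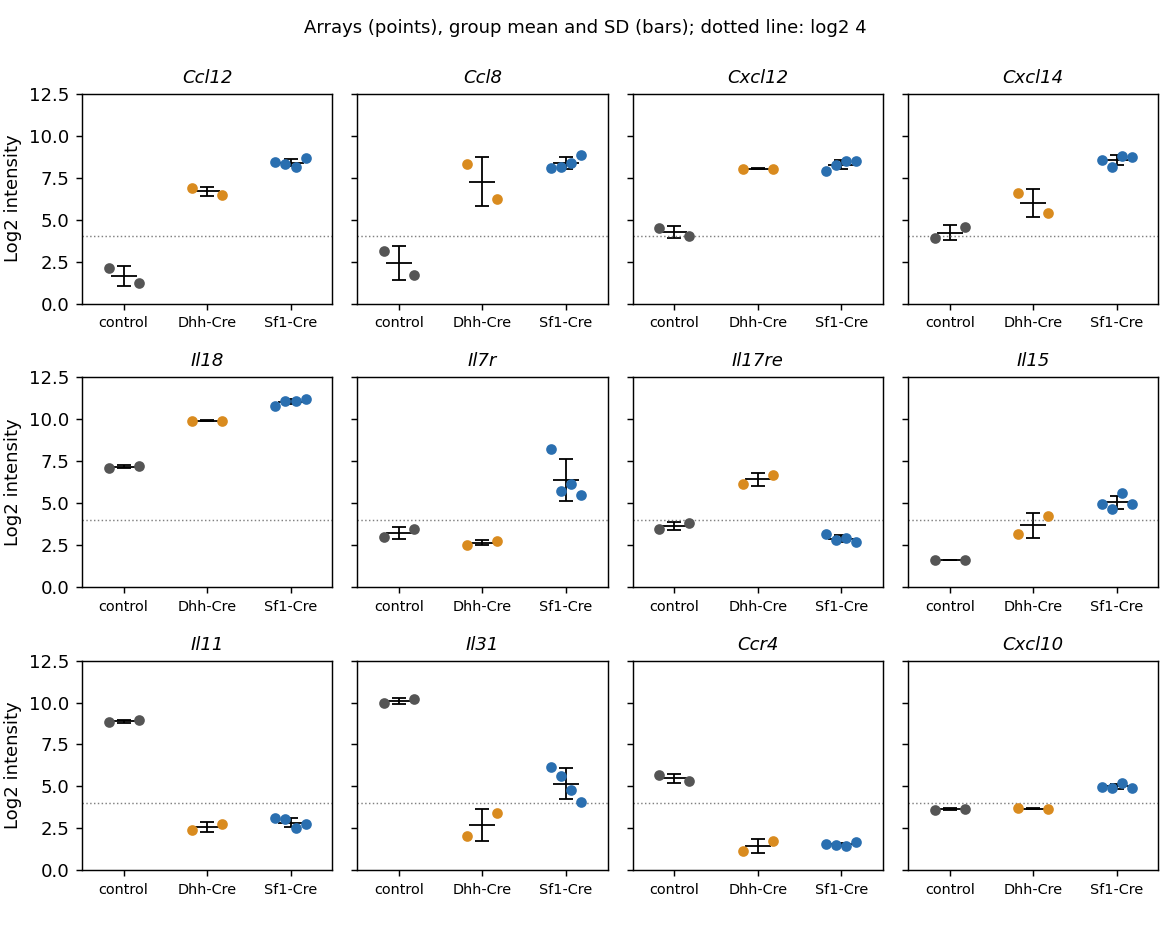
Points give the log2 intensity of 12 members in each array, with the group mean and SD as bars (n = 2, 2 and 4) and a dotted line at log2 4. Ccl12, Ccl8, Cxcl12 and Il18 lie higher in both mutant groups, Il11, Ccr4 and Il31 lower, Il7r and Cxcl10 stand out in Sf1-Cre alone, and Il17re in Dhh-Cre alone.

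The mutant groups were also compared with each other. Of the 52 members 16 were higher and 7 lower in Sf1-Cre than in Dhh-Cre (12.9% and 11.8% of all tested genes), with a median difference of 0.40. The groups did not overlap for 20 members higher and 9 lower in Sf1-Cre (24.5% and 23.2% of all tested genes, 47.7% together). These counts rested on few arrays: without Dhh-Cre replicate 1 they were 8 and 3, and without the 3 arrays with high Spink8 they were 7 and 1. The calls that held on leaving out any 1 array numbered 9 of 23. Higher in Sf1-Cre among these 9 were Cxcl14 (2.57 ± 0.35, 5.92-fold, adjusted p = 0.00264), Ccl6 (1.93 ± 0.32, adjusted p = 0.00594), Ccl12 (1.71 ± 0.27, adjusted p = 0.00439), Cxcl10 (1.32 ± 0.14, adjusted p = 0.000984), Il18 (1.14 ± 0.15, adjusted p = 0.00224) and Ccl5 (1.12 ± 0.18, adjusted p = 0.00492). Lower were Il17re (-3.53 ± 0.21, adjusted p = 7.67e-05), Il10ra (-1.15 ± 0.18, adjusted p = 0.00434) and Cx3cl1 (-0.83 ± 0.15, adjusted p = 0.00697). Leaving out the 3 arrays with high Spink8, which keeps a single Dhh-Cre array, Ccl5 (1.31), Il10ra (-1.21) and Cx3cl1 (-0.91) kept their direction but not the call. All but 1 of the 7 members lower in Sf1-Cre were interleukin receptor chains, the other being Cx3cl1, and no CC ligand or chemokine receptor was lower. Of 18 macrophage markers 8 were higher and none lower in Sf1-Cre than in Dhh-Cre, and of 10 granulosa markers 5 were higher and none lower (12.9% and 11.8% of all tested genes). The 8 macrophage markers included Msr1 and Aif1, which were lower than control in both mutant groups and fell less in Sf1-Cre.

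The other 14 calls between the mutant groups each ended without some array. Without Dhh-Cre replicate 1 the calls of Il15 (0.83, adjusted p = 0.181), Il7r (3.61, adjusted p = 0.0668), Il31 (1.76, adjusted p = 0.178), Il16 (1.06, adjusted p = 0.064), Il17ra (-0.61, adjusted p = 0.155), Il13ra1 (-0.57, adjusted p = 0.114) and Ccr1 (1.67, adjusted p = 0.05) ended. Il31 also fell short without Sf1-Cre replicate 2 (2.29, adjusted p = 0.057). Cxcr4 (0.68, adjusted p = 0.0924) and Il13ra2 (1.45, adjusted p = 0.0741) ended without Dhh-Cre replicate 2, and Ccl27a and Ccl28 without either Dhh-Cre array. Ccl24, Il10rb and Il15ra each ended without any of at least 5 arrays. A second probe set of Il13ra1 gave 0.58 between the mutant groups where the one used gave -0.74. Ccl8, Cxcl12, Cxcl16, Il6st, Il4ra and Il11 were not called between the mutant groups.

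**Figure D5:**
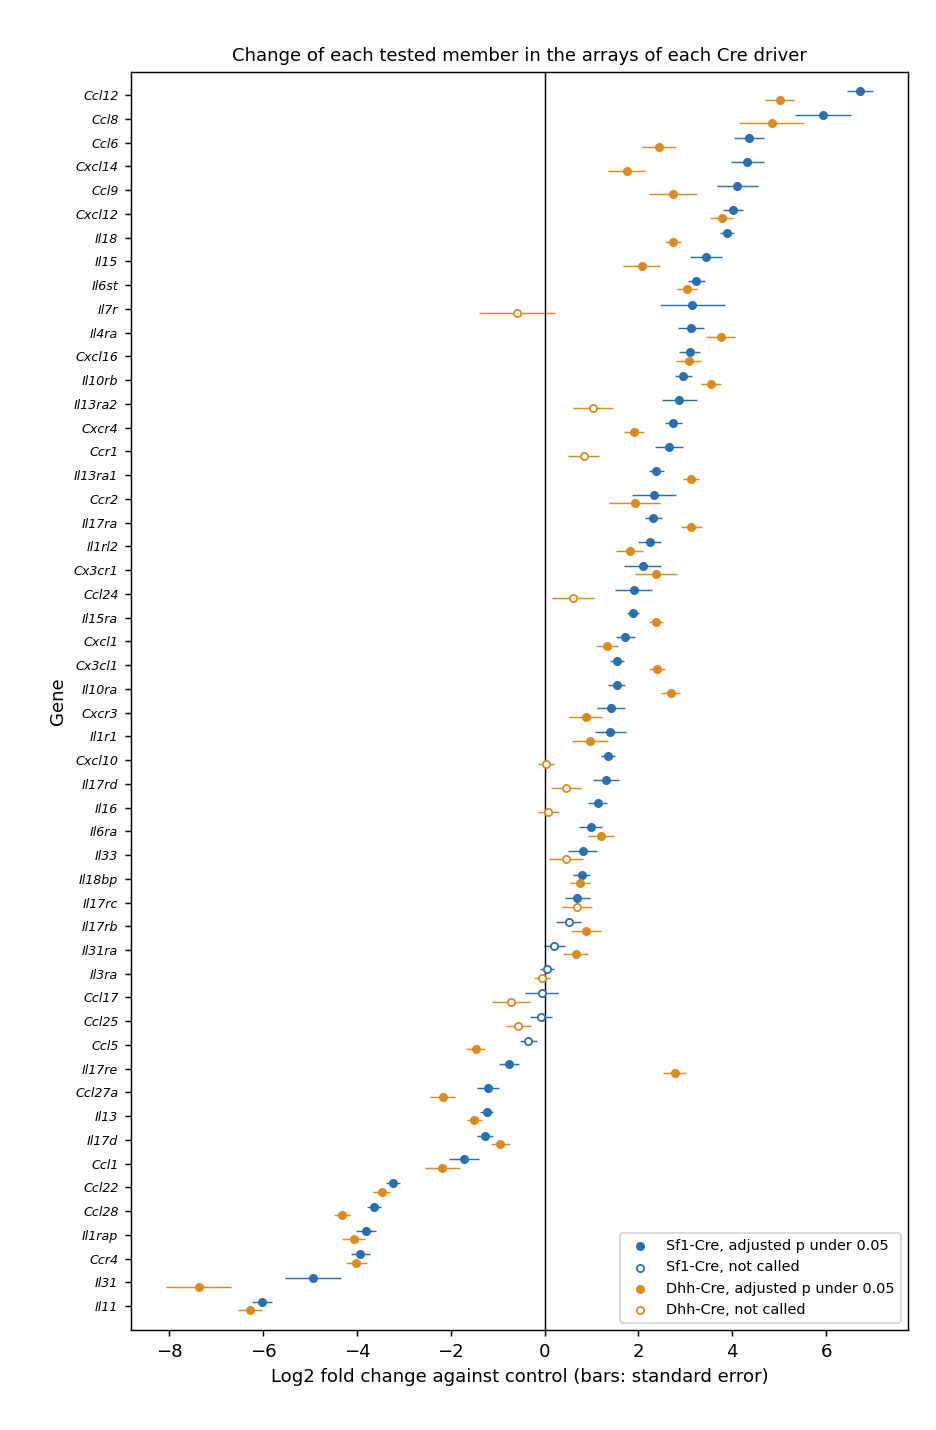
Log2 fold change against control of each tested member in Sf1-Cre (blue) and Dhh-Cre (orange), with standard errors; filled points passed an adjusted p of 0.05. Members run from Il11 and Il31 at the bottom to Ccl12 at the top, and Il17re and Il7r are the members whose 2 points lie farthest apart.

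Genes around these members in their pathways were taken as 5 further lists. Ackr1, Xcl1, Tnfrsf1b, Socs3, Stat4, Sigirr and Grk3 are named from them after their values were seen. Of 11 tested genes of the chemokine system outside the rule, 7 were higher and 3 lower in Sf1-Cre, and 6 higher and 4 lower in Dhh-Cre. Pf4, the platelet chemokine Cxcl4 under its older name, read 7.57 and 7.66 in control, 11.23 and 11.46 in Dhh-Cre and 11.52 to 11.85 in Sf1-Cre. Ackr3, the scavenging receptor for Cxcl12, rose by 3.11 ± 0.23 and 2.93 ± 0.27, as Cxcl12 and Cxcr4 did. Ackr1, the Duffy receptor of venules, rose in Sf1-Cre (4.45 ± 0.60, adjusted p = 0.000223) and not by the test in Dhh-Cre (1.38 ± 0.69, adjusted p = 0.097). Xcl1, a lymphocyte chemokine, fell by 0.92 and 1.44.

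Of 24 tested other cytokines and receptors, 19 were higher and 2 lower in Sf1-Cre and 16 and 2 in Dhh-Cre. Kitl, the ligand of Kit made by Sertoli cells, rose by 3.97 ± 0.21 and 3.19 ± 0.24, and Ifnar2, a chain of the type I interferon receptor, by 4.21 ± 0.20 and 3.61 ± 0.24. Tnfrsf1b, a receptor for tumour necrosis factor, rose by 4.83 ± 0.28 in Sf1-Cre and 1.78 ± 0.33 in Dhh-Cre, a difference of 3.05 between them (adjusted p = 0.00054). Csf2, Csf3, Lif, Osm, Tnf, Lta, Ltb and Ifng were under log2 4 in every array. In the JAK, STAT and SOCS list 17 of 22 tested genes were higher in each group, with 4 lower in Sf1-Cre and 3 in Dhh-Cre. Jak1, a kinase bound to gp130, rose by 3.64 ± 0.14 and 3.56 ± 0.16, Stat6, the factor downstream of Il4ra, by 4.06 ± 0.22 and 4.15 ± 0.26, and Socs3, which is induced by and inhibits gp130 signalling, by 4.93 ± 0.28 and 5.33 ± 0.32. Stat4 fell, from 12.83 and 12.88 in control to 4.06 and 6.96 in Dhh-Cre and 7.64 to 9.81 in Sf1-Cre.

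Of 21 tested genes of Toll, interleukin-1 and NF-kB signalling, 15 were higher in each group, with 4 lower in Sf1-Cre and 5 in Dhh-Cre. Traf6, the ubiquitin ligase below the interleukin-1 and interleukin-17 receptors, rose by 2.28 ± 0.20 and 2.33 ± 0.23, and Ikbkg by 3.19 ± 0.17 and 3.17 ± 0.19, while Nfkb2 fell by 1.75 and 1.95 and Nfkbib by 2.38 and 2.26. Sigirr, a receptor that dampens interleukin-1 signalling, also fell, by 1.31 and 1.56. Of 23 tested genes that carry the signal of chemokine receptors, 15 were higher in each group, with 5 lower in Sf1-Cre and 6 in Dhh-Cre. Pik3cg, the lipid kinase activated by G protein subunits in leukocytes, rose by 3.31 ± 0.16 and 2.98 ± 0.18, Gnai2 by 1.80 ± 0.13 and 2.22 ± 0.15, and Grk3, a receptor kinase, fell by 1.18 and 2.76. Of all tested genes 46.6% were called higher and 33.2% lower in Sf1-Cre, and 49.1% and 30.5% in Dhh-Cre. Housekeeping centring lowers every difference from control given for these lists by the same amount.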

How the data were processed

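The data were 8 whole-testis arrays with 45101 probe sets. Per the submitters' processing notes the deposited intensity values were made by the authors with GCRMA, which corrects background and normalises between arrays; they are linear, and log2 was taken here. The array annotation gave 34958 probe sets 1 gene symbol, 932 several and 9211 none; those with several, 7 of them holding symbols of these families, name no gene here, and Il2rg was not analysed here. Genes with several probe sets were read from the brightest on average, and 13802 of 18194 genes reached log2 4 in at least 2 arrays. A model with 3 group means over all 8 arrays was fitted with limma 3.58.1 in R 4.3.3 (5 residual and 2.73 prior degrees of freedom), and every adjusted p is limma's, by Benjamini-Hochberg over the 13802 genes, called under 0.05. The code was tested on simulated data. The median intensity per array was 13.7 to 15.9, and the number of arrays limits the precision. Promoter windows came from RefSeq (GRCm38.p6), and Ccl12 and Ccl8 were aligned with Biopython 1.88.

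Values by array are given for the 10 largest rises and 5 largest falls against control, the 5 largest called differences each way between the mutant groups, and a fixed set of ligands and receptors; of the pathway lists, up to 4 genes with the lowest p in Sf1-Cre are named. The members and lists were chosen with earlier results of these data known. Alternatives changed the normalisation, filter, handling of low values, moderation, samples in the fit, probe set rule, call rule, replicate block and the arrays kept.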

Additional observations from a re-analysis of the deposited data

Results flagged for a closer look

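Of 59 sets of 4 Sf1-Cre values looked at, 5 held an array far from the other 3, and chance gives about 1 in 20. Il4ra was set apart by 8.0 in replicate 3, against 7.69 to 7.74 in the others. The other 4 were markers of leukocytes in replicate 1: S100a8 at 10.90 and S100a9 at 12.17 (neutrophils), Cd79a at 5.57 (B cells) and Cpa3 at 6.84 (mast cells).

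A direct test found 23 members to differ between the mutant groups, given as log2 Sf1-Cre minus Dhh-Cre. Among chemokines and their receptors these were Ccl12 (1.71), Ccl24 (1.30), Ccl27a (0.97), Ccl28 (0.67), Ccl5 (1.12), Ccl6 (1.93), Cxcl10 (1.32), Cxcl14 (2.57), Cx3cl1 (-0.83), Ccr1 (1.82) and Cxcr4 (0.84). Among interleukins they were Il15 (1.36), Il16 (1.05), Il18 (1.14) and Il31 (2.44). Among interleukin receptors they were Il7r (3.73), Il13ra2 (1.85), Il10ra (-1.15), Il10rb (-0.59), Il13ra1 (-0.74), Il15ra (-0.48), Il17ra (-0.82) and Il17re (-3.53). Both levels of Ccl28 were under log2 4.

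Of the 7 probe sets that the annotation gives to several symbols, 2 were higher in all mutant arrays than in both controls. The one with 9 symbols read at least 8.31 in the mutants against 4.47 and 4.23 in control, and the one with 10 symbols at least 8.11 against 5.71 and 5.73. Neither is assigned to a gene here.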

How the results depend on the processing

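Housekeeping centring gave 18 members higher and 21 lower in Sf1-Cre against control and 14 higher and 26 lower in Dhh-Cre; the cause was not tested. Among the members whose values by array were chosen for printing it turned Il10ra (-0.15), Cx3cl1 (-0.14), Il1r1 (-0.30), Il6ra (-0.72), Il16 (-0.56) and Il33 (-0.89) in Sf1-Cre, and Il13ra2 (-0.67), Il1r1 (-0.72), Il6ra (-0.50), Il16 (-1.61) and Il33 (-1.24) in Dhh-Cre. Among the other called members it turned Cxcl10 (-0.35), Cxcr3 (-0.29), Il17rc (-0.99), Il17rd (-0.39) and Il18bp (-0.91) in Sf1-Cre, and Cxcl1 (-0.36), Cxcr3 (-0.82), Il17rb (-0.81), Il18bp (-0.94) and Il31ra (-1.03) in Dhh-Cre. Centring on the housekeeping mean, chosen after seeing the data, turned Il6ra (-0.09) and Il33 (-0.26) in Sf1-Cre, Il16 (-0.81) and Il33 (-0.43) in Dhh-Cre, and Ccr4 (-0.10) and Cxcl16 (-0.16) between the mutant groups. Quantile normalisation turned Il16 in Dhh-Cre (-0.10), and setting values under log2 4 to 4 turned Ccr2 between the mutant groups (-0.02). Without a filter more genes were tested, and 25 members were lower in Sf1-Cre and 24 in Dhh-Cre. With a filter at log2 6 fewer were, and the counts were 17 higher and 6 lower in Sf1-Cre, 15 and 5 in Dhh-Cre, and 10 and 4 between the mutant groups. Between the mutant groups, averaging every probe set per gene gave 1 member lower, and a further limit of 2-fold gave 2 lower and 2101 genes in all. Without the 3 arrays with high Spink8 there were 7 higher, 1 lower and 816 genes in all, with Ccr4 (-0.17), Ccr2 (-0.62) and Il33 (-0.18) turned. Leaving out 1 array gave 32 to 36 members higher and 10 to 11 lower in Sf1-Cre (9746 to 11047 genes in all), 24 to 32 and 11 to 12 in Dhh-Cre (10001 to 11082), and 8 to 16 and 3 to 6 between the mutant groups (1234 to 3717, with 2201 without Dhh-Cre replicate 2). It turned Il16 in Dhh-Cre (-0.22 without control replicate 1, and up to 0.39 without control replicate 2). Between the mutant groups it turned Ccr4 (-0.22 to 0.37), Ccr2 (-0.57 to 1.41) and Il1r1 (-0.06 to 0.90), each lowest without Dhh-Cre replicate 1, and Cx3cr1 (-0.58 to 0.02) and Il6ra (-0.48 to 0.04), each highest without Dhh-Cre replicate 2. Cxcl16 ran from -0.14 without Dhh-Cre replicate 2 to 0.19, with -0.11 without Sf1-Cre replicate 4. The deviations of same-numbered arrays from their group means had correlations of -0.194 to 0.38. In a group of 2 arrays the deviations mirror each other, so these values cannot settle whether the numbers pair the arrays. With the replicate number as a block the counts were 33 and 10, 32 and 12, and 14 and 6. Cxcl16 between the mutant groups was then -0.14. Over the named members' values under all alternatives 1773 kept direction and call, 102 kept direction but lost the call, 14 gained one and 31 reversed. Signal under log2 4 gives no order.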
